A study of Mus musculus with 58 samples.

Results

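The Hox genes were followed in 2 muscles, the tibialis anterior at the front of the lower leg and the diaphragm, the sheet of muscle that drives breathing. Probe sets whose annotated symbol was Hoxa, Hoxb, Hoxc or Hoxd plus a number were taken, with antisense and Rik names left out. This gave 38 genes of 23185 named genes: 10 of cluster A, 10 of cluster B, 9 of cluster C and 9 of cluster D. All 38 were tested, with no filter on low values.

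RNA came from adult female NSG mice, an immunodeficient strain that lacks B, T and natural killer cells and accepts human tissue. Mice of the PDX groups carried patient-derived xenografts, pieces of pancreatic ductal adenocarcinoma (PDAC) taken from patients with cachexia and attached to the mouse pancreas. Sham mice went through surgery without receiving a tumour. Tumours of 4 patients defined 4 cohorts, each with its own sham group, and the mice were killed once wasting was severe or a tumour had grown past 3 cm, so no fixed time point applies. Per muscle there were 12 sham arrays, 3 in each cohort, and 17 PDX arrays, which were 3, 5, 5 and 4 in cohorts 1 to 4. The labels do not say that every array is a separate mouse, so the p-values rest on the spread among arrays, which may in part be technical. Array medians were 3.70 to 3.86, and the number of arrays limits the precision.

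Hox genes encode homeodomain transcription factors that lie side by side in clusters named A to D, and the gene number (the paralog number) gives the place within a cluster. In the embryo, low numbers are expressed from the head end of the trunk onward, high numbers begin nearer the tail, and the highest numbers also pattern the limbs from shoulder or hip to the digits. The diaphragm is supplied with muscle precursors from the neck and the tibialis anterior belongs to the hindlimb. Muscle progenitors and connective tissue cells of the adult are known to keep part of the Hox expression of their place of origin.

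Hoxa5 and Hoxa9, both in cluster A on chromosome 6, show the contrast between the muscles within 1 cluster: Hoxa5 was higher in the diaphragm and Hoxa9 was higher in the tibialis anterior. Their start regions are given as RefSeq holds them for build GRCm38.p6, from 250 bases before to 50 bases after the gene start, 5′ to 3′ on the minus strand, at chr6:52204538-52204837 for Hoxa5 and chr6:52227321-52227620 for Hoxa9. Capitals mark CG, the dinucleotide that can carry DNA methylation.
Hoxa5: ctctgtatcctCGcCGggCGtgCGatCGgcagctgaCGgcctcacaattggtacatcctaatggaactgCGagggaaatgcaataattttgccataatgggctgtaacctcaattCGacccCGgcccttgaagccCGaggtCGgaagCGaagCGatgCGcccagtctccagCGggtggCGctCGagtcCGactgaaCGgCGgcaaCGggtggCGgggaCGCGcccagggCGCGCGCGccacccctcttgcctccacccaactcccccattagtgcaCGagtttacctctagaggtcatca
Hoxa9: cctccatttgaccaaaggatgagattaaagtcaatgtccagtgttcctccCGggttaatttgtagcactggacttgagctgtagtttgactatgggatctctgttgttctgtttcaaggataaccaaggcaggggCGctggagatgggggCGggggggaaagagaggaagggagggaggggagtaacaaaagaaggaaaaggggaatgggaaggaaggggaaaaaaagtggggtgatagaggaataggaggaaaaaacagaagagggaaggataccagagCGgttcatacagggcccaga
The Hoxa5 region held 29 CG dinucleotides, a number that 12.9% of 32851 promoter regions of the same length reach, and the Hoxa9 region held 4, which 68.6% reach. Start regions were found for 22 of the 38 genes (24 regions), with a median of 14.5 CG against 7 over all 32851 regions. The sequence TGATNNAT, a paired site for a Hox and a Pbx protein, was found on either strand in 4 of the 24 regions (16.7%) and in 8.85% of all regions. The Cdx site TTTATG was found on either strand in 5 of 24 (20.8%) and in 11.9% of all regions. These matches describe the letters only, and neither motif was found in the Hoxa5 or Hoxa9 region.

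Values are log2 signals, in which a difference of 1 is a doubling. A gene was called different when the limma test across all 23185 genes gave a Benjamini-Hochberg adjusted p under 0.05. A background level was set for each group from 1389 olfactory, vomeronasal and taste receptor genes, which muscle is not known to transcribe, as the 95th percentile of their group means. It was 3.50 in sham and 3.57 in PDX tibialis anterior, and 3.40 in sham and 3.42 in PDX diaphragm. By this measure 18 Hox genes were above background in sham tibialis anterior, 13 in sham diaphragm, 19 in PDX tibialis anterior and 13 in PDX diaphragm. Against the median of all probe sets instead, the counts were 14, 11, 14 and 10. A total of 20 genes were above background in at least 1 group, 11 of them in all 4 groups, and 18 in none.

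The arrays bore out their muscle labels. The mean of 9 slow-fibre genes was 4.98 to 5.54 in sham tibialis anterior and 8.76 to 9.69 in sham diaphragm, and 10 general muscle-fibre genes averaged near 11 in both. Genes of other cells also differed between the sham muscles. All 13 hepatocyte markers, all 6 adipocyte markers, all 6 macrophage markers, 12 of 13 mesothelial markers and 11 of 13 fibroblast markers were called higher in the diaphragm. Of all genes 15.2% were. The hepatocyte mean ran from 3.88 to 10.58 over sham diaphragm arrays, from 3.95 to 10.77 over PDX diaphragm arrays and reached at most 5.90 in tibialis anterior, so liver RNA stood high in some diaphragm arrays (above 5 in 6 sham and 9 PDX arrays). The mesothelial mean was 5.01 to 5.77 in sham diaphragm and 3.14 to 3.49 in sham tibialis anterior. Apart from hepatocyte RNA, for which values without those arrays are given, the part of these cells in the Hox differences was not tested. In whole muscle, fewer cells of a type and less RNA per cell cannot be told apart.

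Sham diaphragm and sham tibialis anterior carried different Hox patterns, split by paralog number. Genes numbered 9 to 13 were called higher in the tibialis anterior in 12 of 16 cases and higher in the diaphragm in 0. Genes numbered 1 to 5 were called higher in the diaphragm in 7 of 14 cases and higher in the tibialis anterior in 3. Of the 8 numbered 6 to 8, 1 was called higher in the diaphragm and 2 higher in the tibialis anterior. Over all genes, 15.2% were called higher in the diaphragm and 24.5% higher in the tibialis anterior. The counts for numbers 6 to 8, and the 3 of 14 toward the tibialis anterior, were near these shares. In all, 8 of 38 Hox genes were called higher in the diaphragm and 17 higher in the tibialis anterior. The median difference, diaphragm minus tibialis anterior, was -0.20 over the 38 genes and -0.09 over all genes.

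The larger differences lay mostly on the side of the tibialis anterior. With a difference of at least 1 on the log2 scale, 5 Hox genes were called higher in the tibialis anterior (0.798% of all genes) and 2 higher in the diaphragm (3.22% of all genes). Sham arrays of the 2 muscles did not overlap at all for 7 Hox genes higher in the tibialis anterior (2.17% of all genes) and for 1 higher in the diaphragm (2.62% of all genes). Small differences need care, since 128 of the 1389 receptor genes were also called higher in the tibialis anterior and 8 higher in the diaphragm.

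**Figure D1:**
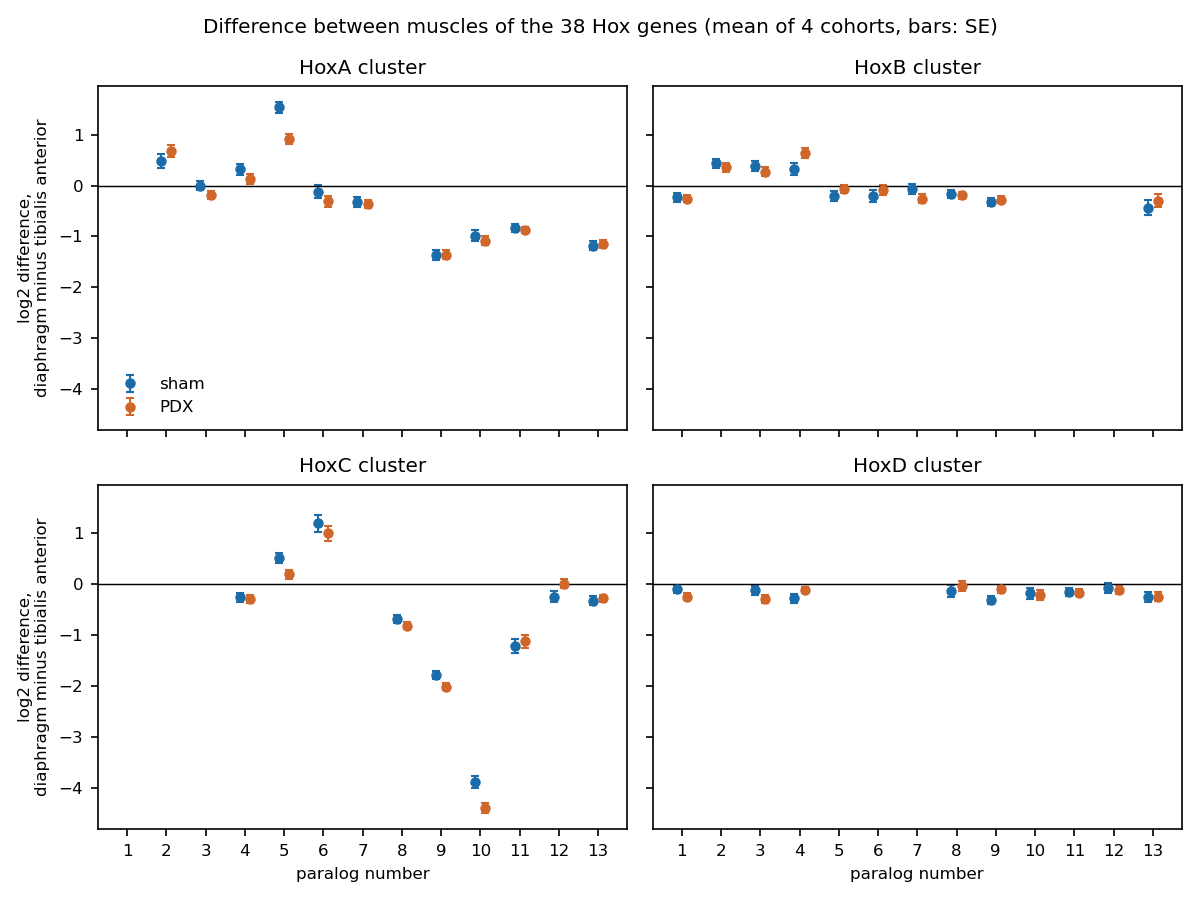
Log2 difference between the muscles, diaphragm minus tibialis anterior, of the 38 Hox genes (vertical axis) by paralog number (horizontal axis), with a panel for each cluster. Points are means of 4 cohorts for sham (blue) and PDX (orange) arrays and bars are limma standard errors; clusters A and C run from 1.53 (Hoxa5) and 1.20 (Hoxc6) above 0 to -1.37 (Hoxa9) and -3.88 (Hoxc10) below it, while no sham difference of cluster D is larger than 0.30 in size.

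The measured differences were not of the same size in all clusters. Over all genes, 15.2% were called higher in the sham diaphragm and 24.5% higher in the sham tibialis anterior. Counts toward the tibialis anterior were near that share in clusters B and D. Cluster A had 3 genes called higher in the diaphragm and 5 higher in the tibialis anterior of 10, and cluster C had 2 and 6 of 9. In cluster B, 3 and 3 of 10 genes were called, with differences between -0.43 and 0.44. Cluster D had 0 genes called higher in the diaphragm and 3 called higher in the tibialis anterior of 9, with differences between -0.30 and -0.08. Those 3 were Hoxd4, Hoxd9 and Hoxd13, which were above background in no group. In cluster D only Hoxd8 and Hoxd10 were above background in any group, and in cluster B only Hoxb3, Hoxb5, Hoxb6 and Hoxb9. All of cluster A except Hoxa2 and Hoxa10 were, and all of cluster C except Hoxc11, Hoxc12 and Hoxc13. Whether the smaller differences of clusters B and D follow from low signal was not tested. In sham arrays the crossing from higher in the diaphragm to higher in the tibialis anterior fell after Hoxa5 in cluster A. There Hoxa7 was the first gene called higher in the tibialis anterior. The Hoxa7 call was lost without cohort 1 and without diaphragm arrays high in hepatocyte markers. In PDX arrays Hoxa3 and Hoxa6 were also called higher in the tibialis anterior, so the place of the crossing is uncertain. In cluster C the crossing fell between Hoxc6 and Hoxc8, where Hoxc4 was an exception at -0.26 (limma adjusted p = 0.0145).

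Hoxa5, which is needed for the airways, the lung and the motor neurons that serve the diaphragm, was the Hox gene with the largest difference in favour of the diaphragm. Its signal ran from 4.73 to 5.75 with a median of 5.15 in the 12 sham diaphragm arrays and from 2.99 to 4.17 with a median of 3.60 in the 12 sham tibialis anterior arrays. Every diaphragm array was above every tibialis anterior array. The difference was 1.53 ± 0.11 (SE), a 2.89-fold higher level in the diaphragm (limma adjusted p = 2.42e-15), and it lay between 1.35 and 1.88 in the 4 cohorts. The tibialis anterior mean of 3.62 was just above the background level, and 8 of its 12 arrays were.

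Hoxc6, a gene of the lower neck and upper chest levels of the embryo, was also higher in the diaphragm. Sham diaphragm arrays lay between 5.71 and 7.10 (median 6.57) and sham tibialis anterior arrays between 4.73 and 6.05 (median 5.37), all above background. The ranges overlapped only between 5.71 and 6.05. The difference was 1.20 ± 0.17 (SE), or 2.29-fold (limma adjusted p = 1.27e-07). It had the same sign in all 4 cohorts, from 0.84 to 1.87, and was largest in cohort 1.

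Hoxc10, a gene of the lumbar trunk and the hindlimb, showed the largest difference of all 38. Sham tibialis anterior arrays lay tightly between 6.93 and 7.46 (median 7.13), and sham diaphragm arrays spread from 2.30 to 4.19 (median 3.29). No array of 1 muscle came within 2 log2 units of the other muscle. The difference was -3.88 ± 0.12 (SE, limma adjusted p = 2.71e-30), with cohort values from -4.41 to -3.18. Because the diaphragm mean of 3.31 was below the background level of 3.40, the tibialis anterior level is best read as at least 13.8-fold higher.

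Hoxc9, which in the embryo marks the chest level of the spinal cord, followed. Its sham tibialis anterior arrays had signals of 4.24 to 5.26 (median 4.81) and its sham diaphragm arrays 2.67 to 3.35 (median 2.96). All 12 diaphragm arrays were below the background level and all 12 tibialis anterior arrays were above it. The difference was -1.78 ± 0.08 (SE, limma adjusted p = 8.85e-23), and the level in the tibialis anterior was at least 2.54-fold higher.

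Hoxa9, the cluster A counterpart of Hoxc9, was between 3.55 and 4.48 (median 4.13) in sham tibialis anterior and between 2.38 and 3.30 (median 2.68) in sham diaphragm. The groups did not overlap, and again 0 diaphragm arrays and 12 tibialis anterior arrays were above background. The difference was -1.37 ± 0.10 (SE, limma adjusted p = 4.88e-16), at least 1.55-fold against the background level.

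Hoxa13, which patterns the digits and the urogenital tract, had a signal of 4.00 to 4.59 (median 4.26) in sham tibialis anterior. The sham diaphragm range was 2.63 to 3.49 (median 3.04), with 1 of 12 arrays above background and none overlapping the other muscle. The difference was -1.18 ± 0.10 (SE, limma adjusted p = 5.84e-14), at least 1.81-fold.

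Hoxc11, a lower trunk and hindlimb gene, lay between 2.89 and 3.89 (median 3.48) in sham tibialis anterior and between 1.83 and 2.59 (median 2.19) in sham diaphragm. The groups did not overlap, but both group means were below background, with 6 tibialis anterior and 0 diaphragm arrays above it. The difference of -1.21 ± 0.14 (SE, limma adjusted p = 2.00e-09) is therefore given without a fold.

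**Figure D2:**
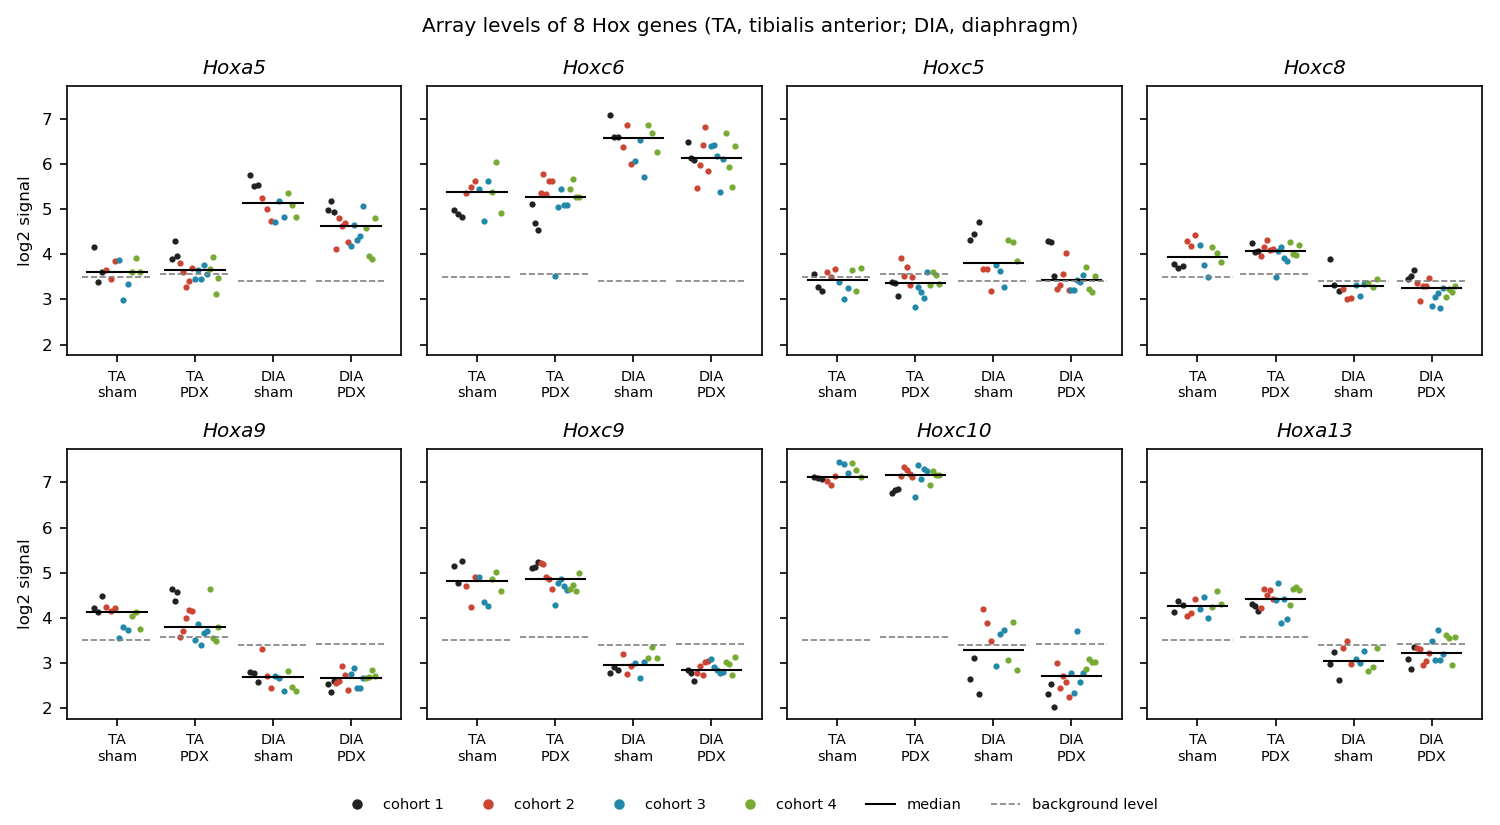
Log2 signal (vertical axis) of 8 Hox genes in each array, with a panel for each gene and columns for sham and PDX tibialis anterior (TA) and diaphragm (DIA). Points are arrays coloured by cohort, solid lines are group medians and dashed lines are the group's background level; Hoxa5 and Hoxc6 are higher in the diaphragm, and Hoxc10 stands near 7.13 in tibialis anterior and at 3.29 in sham diaphragm.

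The other genes called higher in the diaphragm had low numbers and smaller differences. Hoxc5, which shares its number with Hoxa5, differed by 0.51 (adjusted p = 7.18e-05), from 3.19 to 4.72 in the diaphragm against 3.02 to 3.70 in the tibialis anterior. Hoxa2, a gene of the hindbrain and branchial arches, differed by 0.48 (adjusted p = 0.00528) and its paralog in cluster B, Hoxb2, by 0.44 (adjusted p = 0.000268). Hoxb3, Hoxb4 and Hoxa4, which start at the hindbrain and upper neck, differed by 0.38, 0.33 and 0.32 (adjusted p = 0.0019, 0.0251 and 0.019). Of these 6 genes, Hoxa4 was above background in both sham muscles, Hoxb3 and Hoxc5 in the diaphragm alone, and Hoxa2, Hoxb2 and Hoxb4 in neither. The Hoxa4 call was lost without replicate 1 of the sham tibialis anterior in cohort 1, and the Hoxb4 call without replicate 3 of that group or replicate 2 of the sham diaphragm in cohort 3.

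Hoxa10, Hoxa11 and Hoxc8 came next among the genes higher in the tibialis anterior. Hoxa11, which patterns the lower leg and forearm, was 3.41 to 3.89 in sham tibialis anterior and 2.38 to 3.15 in sham diaphragm. The arrays did not overlap and the difference was -0.83 (limma adjusted p = 1.22e-12). Its sham diaphragm mean was below background, so the tibialis anterior level is best read as at least 1.17-fold higher. Hoxa10 also had no overlap, at 3.08 to 3.92 against 2.19 to 2.77, with a difference of -0.98 (adjusted p = 5.54e-11) below background in both muscles. Hoxc8, a chest-level gene, differed by -0.68 (limma adjusted p = 8.43e-10), with 3.50 to 4.44 against 3.01 to 3.89. Its sham diaphragm mean was below background too, which leaves at least 1.48-fold.

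The remaining 9 calls toward the tibialis anterior were small. Hoxb13 differed by -0.43, Hoxa7 by -0.33, Hoxb9 by -0.33, Hoxc13 by -0.32 and Hoxd9 by -0.30 (adjusted p = 0.0197, 0.00426, 0.00195, 0.00194 and 0.00177). Hoxd4 differed by -0.28, Hoxc4 by -0.26, Hoxd13 by -0.26 and Hoxb1 by -0.23 (adjusted p = 0.00411, 0.0145, 0.0318 and 0.0292). The Hoxd13 call was lost without any of 8 single arrays, the Hoxb1 call without any of 6, and the Hoxb13 call without replicate 1 of the sham tibialis anterior in cohort 2. Only Hoxa7, Hoxb9 and Hoxc4 of these 9 were above background in either sham muscle.

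The 13 Hox genes that were not called were Hoxa3, Hoxa6, Hoxb5, Hoxb6, Hoxb7, Hoxb8, Hoxc12, Hoxd1, Hoxd3, Hoxd8, Hoxd10, Hoxd11 and Hoxd12. Their differences ran from -0.24 to -0.00081. Hoxa3, Hoxa6, Hoxb5, Hoxb6, Hoxd8 and Hoxd10 were above background in both sham muscles, so a signal was present there without a difference that passed the test. In RefSeq the Hoxa3 locus overlaps those of Hoxa4, Hoxa5 and Hoxa6, and the loci of Hoxb3 and Hoxb4, of Hoxd10 and Hoxd11 and of Hoxd3 and Hoxd4 also overlap, so the signals of these pairs may share transcripts.

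Cohorts were compared next. Of the 25 genes called in sham arrays, 23 had the same sign in all 4 cohorts, and Hoxb9 and Hoxc5 did not. The calls were made on the mean of these same cohorts, so agreement in sign is partly built in. The share of sham calls over all genes that agreed in this way was not determined. An F test of whether the sham difference varied between cohorts called 0 of 38 Hox genes and 0 of 23185 genes (0%) with limma; 4 Hox genes and 950 genes had an unadjusted p under 0.05. With only 1 cohort at hand, limma called 5, 1, 1 and 3 Hox genes higher in the diaphragm in cohorts 1 to 4. Within cohorts 2 and 3, Hoxc6 no longer passed.

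The differences were also read without diaphragm arrays high in hepatocyte RNA. Without the 11 diaphragm arrays whose hepatocyte mean was above 7.37, and also over cohorts 2 to 4 with no diaphragm array above 5, all 7 genes with a difference of at least 1 were called in the same direction. Over those cohorts the difference was 1.47 for Hoxa5, 0.96 for Hoxc6 and -3.47 for Hoxc10. The counts fell from 8 to 4 genes higher in the diaphragm and from 17 to 8 higher in the tibialis anterior in that smaller set of arrays. The first set keeps some diaphragm arrays above 5 and the second also leaves out cohort 1, so hepatocyte RNA and cohort are not separated there.

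The muscle differences of tumour-bearing mice were then set beside those of sham mice. Of the 25 Hox genes called in sham arrays, 20 were called in PDX arrays with the same sign. That share is close to the 78.8% of sham calls over all genes that were called again with the same sign. All 25 kept their sign in PDX arrays, and the share of sham calls over all genes that did so was not determined. In PDX arrays 6 Hox genes were called higher in the diaphragm (19.3% of all genes) and 22 higher in the tibialis anterior (34.4% of all genes). The share of all calls that was higher in the diaphragm was 35.9%, and 25.9% with arrays centred on their median. Across the 38 genes the sham and PDX differences had a Pearson correlation of 0.98 and a Spearman correlation of 0.85, and across all 23185 genes the Pearson correlation was 0.88. These are descriptions over genes measured on shared arrays and normalised together, and Hoxc10 alone spans much of the range.

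Genes numbered 9 to 13 were called higher in the PDX tibialis anterior in 12 of 16 cases and higher in the PDX diaphragm in 0. Hoxc10 ran from 6.69 to 7.39 (median 7.16) in 17 PDX tibialis anterior arrays and from 2.03 to 3.70 (median 2.72) in 17 PDX diaphragm arrays. The ranges were far apart, and the difference was -4.40 ± 0.10 (SE, limma adjusted p = 2.07e-35), at least 12.6-fold against the background level. Hoxc9 differed by -2.01, Hoxa9 by -1.36, Hoxa13 by -1.14 and Hoxc11 by -1.12 (adjusted p = 7.2e-28, 7.55e-19, 2.77e-16 and 8.93e-11). Since their PDX diaphragm means were below background, Hoxc9 was at least 2.75-fold, Hoxa9 at least 1.48-fold and Hoxa13 at least 1.96-fold higher in the tibialis anterior, and Hoxc11, below background in both muscles, has no fold. PDX arrays of the 2 muscles did not overlap for 6 Hox genes higher in the tibialis anterior (1.52% of all genes), which were Hoxa9, Hoxa10, Hoxa11, Hoxa13, Hoxc9 and Hoxc10, and for 0 higher in the diaphragm (2.52% of all genes).

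On the side of the diaphragm, Hoxc6 and Hoxa5 again led. Hoxc6 ranged from 5.38 to 6.82 (median 6.14) in PDX diaphragm and from 3.52 to 5.79 (median 5.28) in PDX tibialis anterior, a difference of 1.00 ± 0.14 (SE, limma adjusted p = 9.53e-08). Hoxa5 ranged from 3.90 to 5.17 (median 4.63) and from 3.12 to 4.29 (median 3.65), a difference of 0.91 ± 0.10 (SE, limma adjusted p = 6.10e-11). Arrays of the muscles overlapped for both genes; in sham mice they had overlapped for Hoxc6 and not for Hoxa5. Hoxa2, Hoxb4, Hoxb2 and Hoxb3 were called as well, at 0.68, 0.64, 0.36 and 0.27 (adjusted p = 5.1e-06, 8.9e-07, 0.000279 and 0.00752). Hoxa4 and Hoxc5, called in sham arrays, had differences of 0.13 and 0.19 that did not pass (adjusted p = 0.242 and 0.0566).

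Of the other sham calls, Hoxb13, Hoxd4 and Hoxd9 kept their sign in PDX arrays at -0.30, -0.11 and -0.10 without passing (adjusted p = 0.0502, 0.15 and 0.211). The 8 genes called in PDX arrays and not in sham arrays were all higher in the tibialis anterior: Hoxa3, Hoxa6, Hoxb7, Hoxb8, Hoxd1, Hoxd3, Hoxd10 and Hoxd11. Their PDX differences were between -0.31 (Hoxa6) and -0.17 (Hoxd11), with limma adjusted p from 0.00302 (Hoxd3) to 0.0495 (Hoxa3). Of these 8, Hoxb7, Hoxb8, Hoxd1, Hoxd3 and Hoxd11 were above background in no group. Small differences need care here too, since 217 of the 1389 receptor genes were also called higher in the PDX tibialis anterior and 6 higher in the PDX diaphragm. Leaving out 1 array ended the Hoxa3 call in 42 of 58 fits and the Hoxd10 call in 15 of 58. The Hoxd11 call was lost without replicate 2 of the PDX diaphragm or replicate 3 of the PDX tibialis anterior, both of cohort 1. Hoxc12 was the only Hox gene whose sign turned, from -0.24 to 0.01, with neither value passing.

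**Figure D3:**
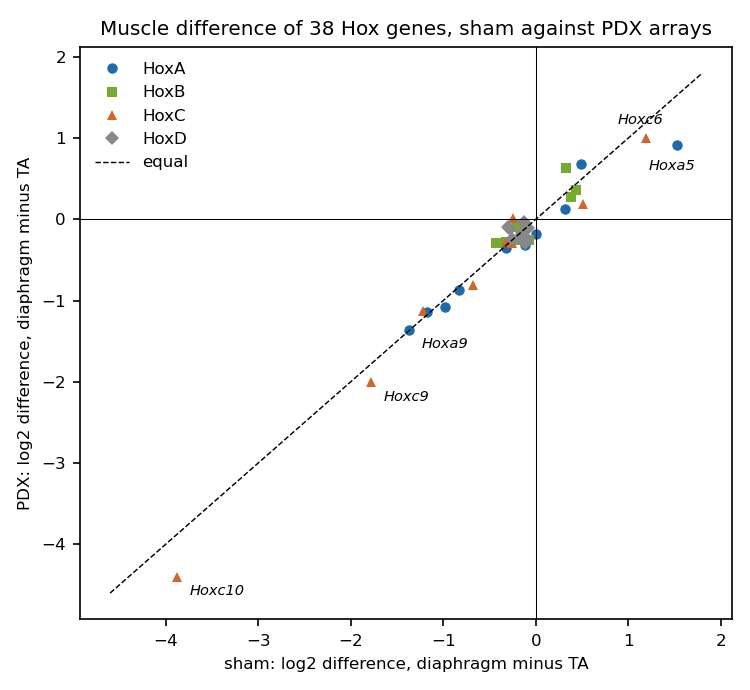
Log2 difference between the muscles, diaphragm minus tibialis anterior (TA), in PDX arrays (vertical axis) against sham arrays (horizontal axis) for the 38 Hox genes, with marker shape for the cluster. The dashed line marks equal differences; most genes lie near it, Hoxa5 lies below it at 1.53 and 0.91, and Hoxc10, whose diaphragm means are below background, lies below it at -3.88 and -4.40.

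Whether the muscle difference itself changed with the tumour was tested directly. Of 38 Hox genes 2 were called (6.33% of all genes), both with a lower diaphragm-minus-tibialis anterior difference in PDX arrays (2.67% of all genes). Over all genes 57.8% of these calls were upward, and 43.3% with arrays centred on their median. The Hoxa5 muscle difference went from 1.53 in sham to 0.91 in PDX arrays, a change of -0.62 ± 0.15 (SE, limma adjusted p = 0.00662). That of Hoxc10 changed by -0.52 ± 0.16 (SE, adjusted p = 0.0333). Its diaphragm means were below background in both treatments, so the size of this change is uncertain: against the background level the muscle difference was at least 3.79 in sham and at least 3.66 in PDX arrays. The median change over the 38 genes was -0.03 and over all genes -0.01. Without cohort 1 the Hoxa5 change was -0.53 (adjusted p = 0.108), and without cohort 2 the Hoxc10 change was -0.21 (adjusted p = 0.669).

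In the tibialis anterior 0 of 38 Hox genes were called between PDX and sham arrays (12.8% of all genes), and 1 Hox gene, Hoxb3, had an unadjusted p under 0.05. Differences, PDX minus sham, ran from -0.17 to 0.24. Hoxc10 had medians of 7.13 and 7.16, and Hoxa9 had medians of 4.13 and 3.79 with overlapping ranges. In the same arrays 11 of 13 fibroblast markers were called lower with the tumour, beside 1514 of all 23185 genes. The fibroblast list mean ran from 6.32 to 7.01 over sham and from 5.08 to 6.39 over PDX arrays.

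In the diaphragm 3 of 38 Hox genes were called (12.5% of all genes), all lower in PDX arrays (6.58% of all genes). Hoxa5 fell from the sham range of 4.73 to 5.75 to a PDX range of 3.90 to 5.17, a difference of -0.56 ± 0.11 (SE, limma adjusted p = 0.00113). The ranges overlapped, every array of both groups was above background, and the cohort differences were -0.57, -0.50, -0.39 and -0.78. Its difference in the tibialis anterior was 0.06 (adjusted p = 0.80), with cohort values of both signs. Without the diaphragm arrays high in hepatocyte markers the diaphragm difference was -0.52 (adjusted p = 0.0645), and with the hepatocyte mean as a covariate it was -0.56 (adjusted p = 0.00048).

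Hoxc5 fell by 0.36 ± 0.10 (SE, limma adjusted p = 0.0222), from a median of 3.80 in sham to 3.44 in PDX diaphragm. Its ranges of 3.19 to 4.72 and 3.17 to 4.30 overlapped almost wholly, and 10 of 12 sham and 9 of 17 PDX arrays were above background. The cohorts were uneven, at -0.47, -0.04, -0.20 and -0.73, and the call was lost without cohort 1, 3 or 4, without the arrays high in hepatocyte markers (-0.17, adjusted p = 0.55) or without replicate 3 of the PDX diaphragm in cohort 1 (adjusted p = 0.0526).

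Hoxc10 in the diaphragm fell by 0.63 ± 0.14 (SE, limma adjusted p = 0.00321), around the background level: 6 of 12 sham arrays and 1 of 17 PDX arrays lay above it. No fold is given for this reason. Cohort 2 had the largest difference at -1.26, against -0.39, -0.61 and -0.27 in cohorts 1, 3 and 4, and without cohort 2 the difference was -0.42 (adjusted p = 0.163). The Hoxc10 call was also lost without the diaphragm arrays high in hepatocyte markers and with cohort as the replicate. It was kept with the hepatocyte mean as a covariate. Hoxc6, the other gene high in the diaphragm, differed by -0.33 and did not pass (adjusted p = 0.188).

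**Figure D4:**
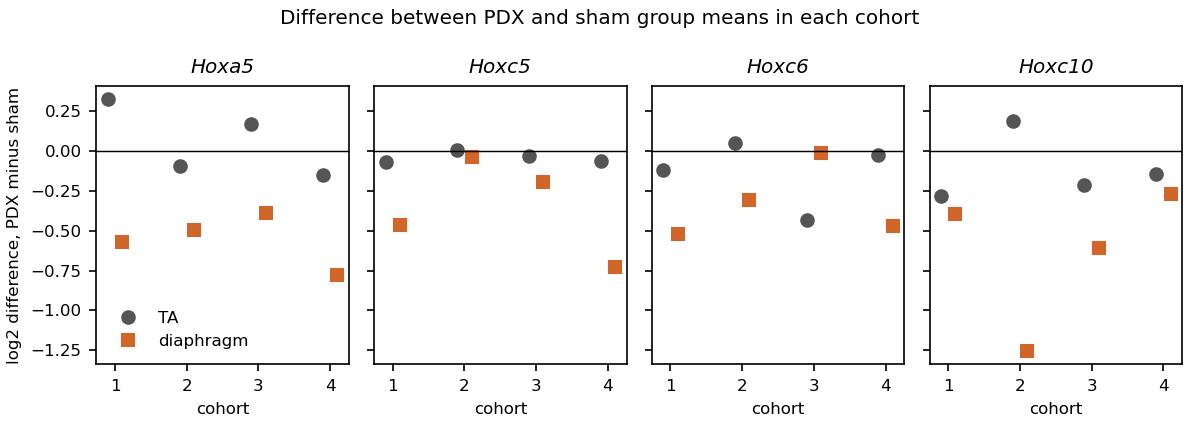
Log2 difference, PDX minus sham group mean (vertical axis), in each of the 4 cohorts (horizontal axis) for Hoxa5, Hoxc5, Hoxc6 and Hoxc10, with circles for tibialis anterior (TA) and squares for diaphragm. Hoxa5 squares lie between -0.78 and -0.39 while its circles lie on both sides of 0, and the Hoxc10 square of cohort 2 stands apart at -1.26.

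Cell type markers also moved with the tumour. Of all 23185 genes, 1366 were called higher and 1526 lower in PDX diaphragm, and 1514 lower in PDX tibialis anterior. In the test of the change, 849 of the 23185 were called with a higher difference. Of 6 macrophage markers 5 were called higher in PDX diaphragm, and their list mean ran from 5.90 to 6.90 over sham and from 6.45 to 8.10 over PDX arrays. The adipocyte mean ran from 5.48 to 7.40 over sham and from 4.96 to 7.26 over PDX arrays, with 1 of 6 markers called lower. Mesothelial markers had 4 of 13 called higher, and the hepatocyte list had 0 of 13 called. In the test of the change, 8 of 13 fibroblast, 5 of 8 tendon and 5 of 6 macrophage markers were called with a higher diaphragm-minus-tibialis anterior difference in PDX arrays. In the tibialis anterior 11 of 13 fibroblast, 7 of 8 tendon and 2 of 6 macrophage markers were called lower in PDX arrays, while in the diaphragm 2 of 13 fibroblast markers were called higher, 2 of 13 lower and 1 of 8 tendon markers higher. The part of these cells in the Hox calls was not tested.

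Hox proteins bind DNA with partners of the TALE class, the Meis, Pbx and Pknox homeodomain proteins. Beside the 15.2% and 24.5% of all genes called higher in sham diaphragm and tibialis anterior, and the median of -0.09, 2 of 10 such genes were called higher in the diaphragm and 1 higher in the tibialis anterior, with a median of -0.08. Meis2 had 6.40 to 7.26 in sham diaphragm and 2.85 to 3.80 in sham tibialis anterior, a difference of 3.36 ± 0.10 (SE, limma adjusted p = 9.53e-31) with no overlap, and 3.36 again in PDX arrays. Meis1 differed by 0.87 (adjusted p = 2.73e-10) and Pknox2 by -0.34 (adjusted p = 0.00814). Pbx3 was the only gene of the list called in the change with the tumour, at 0.41 (adjusted p = 0.0152).

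Among 27 transcription factors of limb and body axis patterning, 5 were called higher in the sham diaphragm and 11 higher in the tibialis anterior, with a median of -0.16. Of all genes 15.2% and 24.5% were, with a median of -0.09. Sim1, a bHLH-PAS factor, was 5.48 to 6.01 in sham tibialis anterior and 2.73 to 3.88 in sham diaphragm, a difference of -2.56 (adjusted p = 1.11e-25). Shox2, Pax3 and Tbx3 were higher in the diaphragm by 2.02, 1.69 and 1.58 (adjusted p = 6.88e-17, 4.29e-17 and 1.35e-14); Pax3 is a factor of migrating muscle precursors. Tbx4 and Pitx1, which define the hindlimb in the embryo, differed by 0.01 (adjusted p = 0.958) and -0.30 (adjusted p = 0.0134), and the forelimb factor Tbx5 by 0.15 (adjusted p = 0.136). Pitx1 and Tbx5 were below background in both muscles.

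Of 13 genes known for diaphragm development, 6 were called higher in the sham diaphragm (15.2% of all genes) and 0 higher in the tibialis anterior (24.5%), with a median of 0.23. Gata6 differed by 2.22, Wt1 by 1.64, Zfpm2 by 1.23 and Gata4 by 0.56 (adjusted p = 1.72e-20, 9.57e-16, 8.26e-14 and 2.36e-05). Wt1 is also a marker of mesothelium, whose list was higher in the diaphragm as given above.

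Genes that set Hox expression in the embryo had 3 of 22 called higher in the diaphragm (15.2% of all genes) and 10 higher in the tibialis anterior (24.5%), with a median of -0.19. Aldh1a2, which makes retinoic acid, differed by 1.70 (adjusted p = 1.76e-11), and Dhrs3, which limits it, by 0.87 (adjusted p = 2.14e-07). The retinoid receptor Rxrg differed by -1.37 (adjusted p = 8.42e-13), and Gdf11, the ligand that times the switch from trunk to tail, by -0.81 (adjusted p = 8.7e-08).

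Polycomb and trithorax proteins keep Hox genes off or on. Of 25, 0 were called higher in the sham diaphragm and 5 higher in the tibialis anterior, against 15.2% and 24.5% of all genes, with a list median of -0.10 beside -0.09. The 4 largest were Phc1, Kdm6b, Jarid2 and Kmt2d at -0.55, -0.41, -0.40 and -0.37 (adjusted p = 1.38e-07, 0.00145, 0.00215 and 0.00047). In PDX arrays 18 of 25 were called higher in the tibialis anterior and 2 higher in the diaphragm, against 34.4% and 19.3% of all genes. In the tibialis anterior 6 of 25 and in the diaphragm 1 of 25 were called higher in PDX than in sham arrays. Of all 23185 genes, 1465 and 1366 were. The muscle difference itself was called changed for 0 of 25 (6.33% of all genes). Of 19 other homeobox genes of the Hox neighbourhoods and the related ParaHox group, 0 were called higher in the sham diaphragm and 11 higher in the tibialis anterior. All genes had 15.2% and 24.5%, and the list median was -0.28 beside -0.09. En2, Gbx2, Mnx1 and Dlx4 differed by -0.53, -0.48, -0.33 and -0.32 (limma adjusted p = 0.000634, 1.72e-05, 0.00624 and 0.0233). En2, Mnx1 and Dlx4 were above background in no group. Of the 1389 receptor genes, 128 were also called higher in the sham tibialis anterior and 8 higher in the diaphragm.

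Noncoding transcripts also lie within the Hox clusters. Of 9 measured, 5 were called higher in the sham tibialis anterior (24.5% of all genes) and 0 higher in the diaphragm (15.2%), with a median of -0.27. Hoxa11os, the antisense transcript of Hoxa11, differed by -0.90 (adjusted p = 3.59e-09) and Hotair, which lies between Hoxc11 and Hoxc12, by -0.75 (adjusted p = 4.9e-08). Mir615, Hoxaas3 and Mir196a-1 differed by -0.42, -0.34 and -0.27 (adjusted p = 0.000857, 0.00312 and 0.0132), and all of these except Hoxaas3 were below background. Mir196a-1 lies in cluster B, with its 5′ product at chr11:96265187-96265208 of GRCm38.p6 on the plus strand, and is shown because its product is known to repress Hox messages; the array probed the hairpin gene, not the mature RNA.
miR-196a-5p: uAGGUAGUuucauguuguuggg
The mature sequence is from RefSeq and the capitals mark its seed, bases 2 to 8. The same mature sequence comes from Mir196a-2 in cluster C, whose probe set differed by -0.22 and did not pass (adjusted p = 0.0812).

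Genes that flank the clusters on the chromosome were also read. Of 24 such neighbours (3 on each side of a cluster), 7 were called higher in the sham diaphragm and 3 higher in the tibialis anterior, against 15.2% and 24.5% of all genes, with a median difference of -0.02. Skap2, an adaptor protein gene next to cluster A, differed most, at 1.24 (adjusted p = 1.76e-14).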

How the data were processed

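Total RNA of 58 muscle samples was hybridised to Affymetrix arrays. The deposited values are on the log2 scale; the authors used RMA with affy 1.36.1 in R 2.15.1, per the submitters' processing notes, which corrects background and normalises all arrays together. The annotation's genome build is not given in the sources used here. Of 25206 probe sets, 23185 had a gene name and were tested with limma 3.58.1 (R 4.3.3, statmod 1.5.0) on 16 group means (muscle, treatment and cohort), each contrast being the equally weighted mean of 4 cohorts. Tests were two-sided with Benjamini-Hochberg adjustment over all 23185 genes. Tumour effects were fitted on the 29 arrays of each muscle. The method was tested on simulated data. Hox genes called between sham muscles with a log2 difference of at least 1 were described in full, other calls by difference and adjusted p; other lists give up to 4 called genes and fixed regulators. Members and lists were chosen with earlier results of these data known. Alternatives covered scaling, filters, blocks, cohorts and single arrays.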

Additional observations from a re-analysis of the deposited data

Results flagged for a closer look

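A single array stood apart in 3 of 42 groups of 4 or 5 arrays examined by Dixon's criterion, and chance gives about 1 in 20. Hoxc6 in PDX tibialis anterior, cohort 3 replicate 1, was 3.519, with the other arrays between 5.041 and 5.441. Hoxa13 in PDX diaphragm, cohort 4 replicate 3, was 2.949 against 3.541 to 3.607. Hoxa13 in PDX tibialis anterior, cohort 4 replicate 1, was 4.278 against 4.62 to 4.682.

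The tumour effect differed between the muscles for 2 genes by limma's test of the difference itself, diaphragm minus tibialis anterior. It was -0.6215 for Hoxa5 and -0.5169 for Hoxc10. The Hoxc10 value rests on diaphragm means below the background level in sham and PDX arrays, so its size is uncertain.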

How the results depend on the processing

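The 7 genes with sham differences of at least 1 were called in the same direction in sham and PDX arrays under all 3 hepatocyte settings, of which the covariate and the set of cohorts 2 to 4 were chosen after seeing the data. Over 88 named results and 21 alternatives, not counting single arrays, 1290 values kept direction and call, 330 kept direction and lost the call, and 7 reversed. Those were the sham differences within 1 cohort of Hoxb9 (cohort 3, 0.00997), Hoxc5 (cohort 2, -0.0700) and Pitx1 (cohort 3, 0.0153), and the PDX differences of Hoxa6 (cohort 2, 0.0448), Hoxc4 (cohort 3, 0.0233), Hoxc13 (cohort 4, 0.137) and Hoxd11 (cohort 2, 0.0940); the cause was not tested. Hox genes higher in the sham diaphragm (8) were 5 among genes above background, 5 without cohort 1, 5, 1, 1 and 3 within cohorts 1 to 4, 4 in cohorts 2 to 4 without arrays above 5 in hepatocyte markers and 2 at 1.5-fold or more. Those higher in the sham tibialis anterior (17) were 9 above background, 8, 6 and 8 within cohorts 2 to 4, 11 with the hepatocyte covariate, 8 in the reduced cohorts and 8 at 1.5-fold. In PDX arrays the 6 higher in the diaphragm were 3 and 1 within cohorts 3 and 4, and the 22 higher in the tibialis anterior were 12 above background, 14 without cohort 2, 13, 14, 7 and 9 within cohorts, 12 in the reduced cohorts and 8 at 1.5-fold. The 2 changes became 1 with paired differences, with cohort as the replicate, without cohort 1, without cohort 2, without arrays high in hepatocyte markers, in the reduced cohorts and at 1.5-fold. The 3 diaphragm tumour effects became 1 with cohort as the replicate, 0, 1, 0 and 0 within cohorts, 0 without arrays high in hepatocyte markers, 1 in the reduced cohorts and 1 at 1.5-fold. Fewer arrays or genes entered several of these fits.

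Leaving out 1 array at a time gave 7 to 8 and 15 to 19 sham calls, 6 to 7 and 19 to 23 PDX calls, 1 to 2 changes and 2 to 3 diaphragm tumour effects, with 0 in the tibialis anterior and 0 by the cohort test. The Hoxc10 change lost its call without any of 9 single arrays, with values from -0.58 to -0.44. Same-numbered samples of the muscles showed little shared deviation from their group means (sham correlations -0.0783 to 0.166, PDX -0.222 to 0.222). Such correlations between different muscles cannot tell whether the samples came from the same mouse, which the labels do not say. A replicate block gave 8, 17, 6, 23 and 2 calls, and paired differences gave 8, 18, 6, 20 and 1. The Hoxc10 change had adjusted p = 0.0593 with limma on paired differences.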
